A study of Homo sapiens with 15 samples.

Results

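The circadian clock genes described here were PER1, PER2, PER3, CRY1, CRY2, ARNTL, CLOCK, DBP, TEF and NFIL3, 10 of the 57773 genes listed in each library's table. Rows were taken by symbol from a list drawn up with earlier results of these data known, and all 10 were among the 12567 genes that passed the filter on low counts. RNA was measured in HepG2, a line derived from a human hepatocellular carcinoma, kept below 25 passages. Cultures settled for 72 h after seeding and were then exposed for 72 h to tris(2-chloroethyl) phosphate (TCEP) at 250 µM or 25 µM, to tris(2-chloroisopropyl) phosphate (TCIPP) at 25 µM or 2.5 µM, or to the solvent dimethyl sulfoxide (DMSO) at 0.1%. TCEP and TCIPP are chlorinated organophosphate flame retardants, which differ in that every chloroalkyl chain of TCIPP bears an extra methyl. There were 5 groups, and each held 3 libraries, numbered 1 to 3 in the labels, from cultures that were seeded, exposed and extracted apart from each other. The sources used here give no hour of harvest, no step to synchronise the cells and no meaning of the numbers across groups.

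In the mammalian clock, CLOCK and ARNTL (also called BMAL1) pair and activate genes that carry E-box sequences, among them the PER and CRY genes. PER and CRY proteins then return to the nucleus and repress CLOCK and ARNTL, which closes the loop over about a day. A further loop acts on ARNTL through the REV-ERB repressors and ROR activators, and the output factors DBP and TEF activate, while NFIL3 represses, genes with D-box sequences. In liver the clock times much of metabolism, whereas in unsynchronised cultures the rhythms of single cells drift out of phase. Each culture was taken at 1 time, so phase and mean level cannot be told apart, and in bulk RNA neither can fewer cells and less RNA per cell.

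None of the 10 clock genes passed the test in any of 9 comparisons between groups, and 1 of them, NFIL3, differed between the culture numbers, as did 14.5% of all genes tested. The nearest to a difference lay between the compounds at their shared concentration of 25 µM, where PER1, PER2 and DBP averaged higher in TCIPP than in TCEP cultures. PER1 and PER2 passed that test once the culture number was taken into account over all 15 libraries, DMSO included, where 9.23% of all genes did. PER1 also passed without the filter on low counts. ARNTL was lowest in the 3 cultures at TCIPP 2.5 µM, and DBP was lowest in the 6 TCEP cultures, without passing the test against DMSO.

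Exon reads per library summed to 5.35 M to 26.8 M (M, mega), with a median of 8.89 M. Levels are given in CPM, the exon reads of a gene per M exon reads of its library, and a count of 3 reads was worth 0.112 to 0.560 CPM. The number 3 library was the deepest in 4 of the 5 groups. All 10 hepatocyte and HepG2 markers, such as ALB and AFP, exceeded 1 CPM in every library and summed to 47962 to 59093 CPM. That level was exceeded in every library by 0 of 3 matched endothelial, 2 of 5 leukocyte, 1 of 5 fibroblast and stellate and 1 of 3 neuron markers, and each of these lists summed to at most 50.5 CPM.

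The clock genes differed widely in level. On the deposited RPKM scale, which divides by exon length, NFIL3 averaged 64.6 ± 1.99 RPKM in DMSO cultures (SD, n = 3), above 96.1% of the genes tested. CRY1 followed at 4.21 ± 0.326 RPKM, then PER2 at 3.02 ± 0.380, CRY2 at 2.50 ± 0.311, TEF at 1.87 ± 0.210 and PER1 at 1.45 ± 0.134 RPKM. The lowest levels were those of PER3 at 1.09 ± 0.155, CLOCK at 0.890 ± 0.0446, ARNTL at 0.837 ± 0.124 and DBP at 0.493 ± 0.0557 RPKM. Neighbours in this order overlapped over the DMSO cultures for PER2 with CRY2 and for CLOCK with ARNTL. DBP lay above 8.72% of the genes tested, and its counts of 15 to 89 reads per library make it the least precisely measured of the 10.

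**Figure D1:**
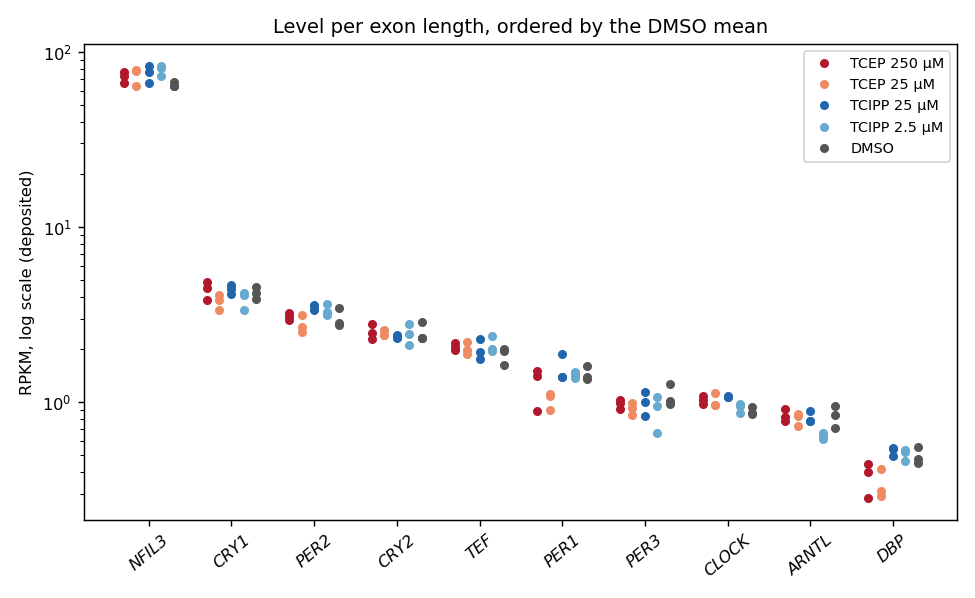
Level of each clock gene per exon length (deposited RPKM, log scale), 1 point per library, with genes ordered by their DMSO mean and colours for the 5 groups. NFIL3 lies far above the rest, with a DMSO mean of 64.6 RPKM against 4.21 RPKM for the next gene, CRY1.

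The negative limb of the loop is described first. PER1 (ENSG00000179094, hg19 chromosome 17, 8043790 to 8059824, minus strand) encodes a repressor of CLOCK and ARNTL and is also known as an early responder to growth and cAMP signals. Its level was 11.5, 6.79 and 10.8 CPM at TCEP 250 µM, 8.53, 6.85 and 8.28 CPM at TCEP 25 µM, 14.5, 10.6 and 10.8 CPM at TCIPP 25 µM and 11.2, 10.9 and 10.6 CPM at TCIPP 2.5 µM, against 10.8, 12.3 and 10.4 CPM in DMSO cultures. All 3 TCEP 25 µM cultures thus lay below all 3 DMSO cultures, whereas the TCEP 250 µM cultures spread across both ranges.

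PER2 (ENSG00000132326, chromosome 2, 239152679 to 239198743, minus strand) encodes the partner repressor. It measured 23.2, 22.0 and 24.1 CPM at TCEP 250 µM, 18.9, 20.0006 and 23.6 CPM at TCEP 25 µM, 25.1, 26.7 and 27.4 CPM at TCIPP 25 µM and 23.3, 27.2 and 24.7 CPM at TCIPP 2.5 µM, against 21.5, 26.1 and 20.8 CPM in DMSO cultures. Of its exon reads 53.7% were unique to 1 place in the genome, so part of its count may come from near-identical sequence elsewhere. PER3 (ENSG00000049246, chromosome 1, 7844380 to 7905237, plus strand), a family member that the core loop needs less, had a unique share of 76.0%. It measured 7.74, 7.99 and 7.05 CPM at TCEP 250 µM, 7.68, 6.52 and 7.20 CPM at TCEP 25 µM, 6.51, 7.84 and 8.99844 CPM at TCIPP 25 µM and 7.31, 5.16 and 8.29 CPM at TCIPP 2.5 µM, against 7.97, 9.85 and 7.60 CPM in DMSO cultures. All groups overlapped. Its means ran from 6.92 ± 1.60 CPM at TCIPP 2.5 µM to 8.48 ± 1.21 CPM in DMSO cultures, and single cultures from 5.16 to 9.85 CPM.

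CRY1 (ENSG00000008405, chromosome 12, 107385142 to 107487607, minus strand) encodes the stronger of the CRY repressors. Its level was 24.9, 21.3 and 26.8 CPM at TCEP 250 µM, 21.0, 18.6 and 22.7 CPM at TCEP 25 µM, 25.7, 24.7 and 23.2 CPM at TCIPP 25 µM and 22.3, 18.4 and 23.3 CPM at TCIPP 2.5 µM, against 21.6, 23.5 and 25.1 CPM in DMSO cultures. Its range overlapped that of the DMSO cultures in every treated group. CRY2 (ENSG00000121671, chromosome 11, 45868669 to 45904798, plus strand) varied least between groups of the 10. It measured 19.0, 16.9 and 15.4 CPM at TCEP 250 µM, 17.4, 16.4 and 16.4 CPM at TCEP 25 µM, 16.1, 16.4 and 15.9722 CPM at TCIPP 25 µM and 14.2, 16.4 and 19.0 CPM at TCIPP 2.5 µM, against 15.8, 19.5 and 15.8 CPM in DMSO cultures. Its group means spanned 16.2 ± 0.248 CPM at TCIPP 25 µM to 17.1 ± 1.80 CPM at TCEP 250 µM, a range of 0.07 on the log2 scale against a median range of 0.25 over all genes tested.

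In the positive limb, ARNTL (ENSG00000133794, chromosome 11, 13298199 to 13408813, plus strand) is the component whose loss alone stops the clock in mice. Its level was 6.11, 5.73 and 6.72 CPM at TCEP 250 µM, 6.26, 6.08 and 5.36 CPM at TCEP 25 µM, 5.72, 5.79 and 6.64 CPM at TCIPP 25 µM and 4.50, 4.72 and 4.89 CPM at TCIPP 2.5 µM, against 7.08, 5.24 and 6.25 CPM in DMSO cultures. The 3 TCIPP 2.5 µM cultures were below the other 12, whose lowest was 5.24 CPM. This split was chosen after the values were seen, and 0.668% of the genes tested (84 of 12567) separated these 3 libraries from the rest in 1 direction or the other.

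Its partner CLOCK (ENSG00000134852, chromosome 4, 56294070 to 56413305, minus strand) had the smallest spread within groups, an SD of 0.08 on the log2 scale against a median of 0.15 over all genes. It measured 12.6, 13.3 and 13.9 CPM at TCEP 250 µM, 12.3, 12.4 and 14.5 CPM at TCEP 25 µM, 13.7, 14.0 and 13.9 CPM at TCIPP 25 µM and 11.1, 12.4 and 12.2 CPM at TCIPP 2.5 µM, against 11.3, 11.1 and 12.1 CPM in DMSO cultures. All cultures of the first 3 of these groups exceeded every DMSO culture, and those 3 comparisons share the DMSO libraries. CLOCK overlaps TMEM165 on the opposite strand over 25495 bp. The use of strand in the authors' counting is not stated, so where the 2 genes overlap their reads cannot be told apart. Over the libraries CLOCK had 2176 exon reads and TMEM165 had 11414.

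Among the output factors, DBP (ENSG00000105516, chromosome 19, 49133287 to 49140695, minus strand) is a direct E-box target with a strong daily rhythm in liver. Its level was 2.04, 2.87 and 3.19 CPM at TCEP 250 µM, 2.09, 2.21 and 2.99 CPM at TCEP 25 µM, 3.93, 3.55 and 3.94 CPM at TCIPP 25 µM and 3.80, 3.69 and 3.32 CPM at TCIPP 2.5 µM, against 3.41, 3.99 and 3.22 CPM in DMSO cultures. All 6 TCEP cultures lay below the other 9, by a narrow gap of 3.19 to 3.22 CPM at its edge. This split too was chosen after the values were seen, and 0.175% of the genes tested (22 of 12567) separated the 6 TCEP libraries from the other 9 in either direction. DBP overlaps SPHK2 on the opposite strand over 688 bp, with the same limit as for CLOCK.

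TEF (ENSG00000167074, chromosome 22, 41763337 to 41795330, plus strand), a D-box activator of the same family, measured 11.3, 10.3 and 10.6 CPM at TCEP 250 µM, 9.67, 11.3 and 10.3 CPM at TCEP 25 µM, 11.8, 9.15 and 10.1 CPM at TCIPP 25 µM and 10.3, 12.2 and 10.1 CPM at TCIPP 2.5 µM, against 8.47, 10.5 and 10.1 CPM in DMSO cultures. Its means were 10.7 ± 0.520 CPM at TCEP 250 µM, 10.4 ± 0.810 CPM at TCEP 25 µM, 10.4 ± 1.33 CPM at TCIPP 25 µM and 10.9 ± 1.20 CPM at TCIPP 2.5 µM, against 9.69 ± 1.07 CPM in DMSO cultures. Every treated range overlapped the DMSO range. NFIL3 (ENSG00000165030, chromosome 9, 94171327 to 94186144, minus strand), the D-box repressor also known as E4BP4, measured 151, 174 and 165 CPM at TCEP 250 µM, 145, 179 and 178 CPM at TCEP 25 µM, 151, 189 and 176 CPM at TCIPP 25 µM and 165, 189 and 184 CPM at TCIPP 2.5 µM, against 146, 153 and 145 CPM in DMSO cultures. All TCIPP 2.5 µM cultures were above all DMSO cultures, and in each treated group the number 1 culture was the lowest.

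**Figure D2:**
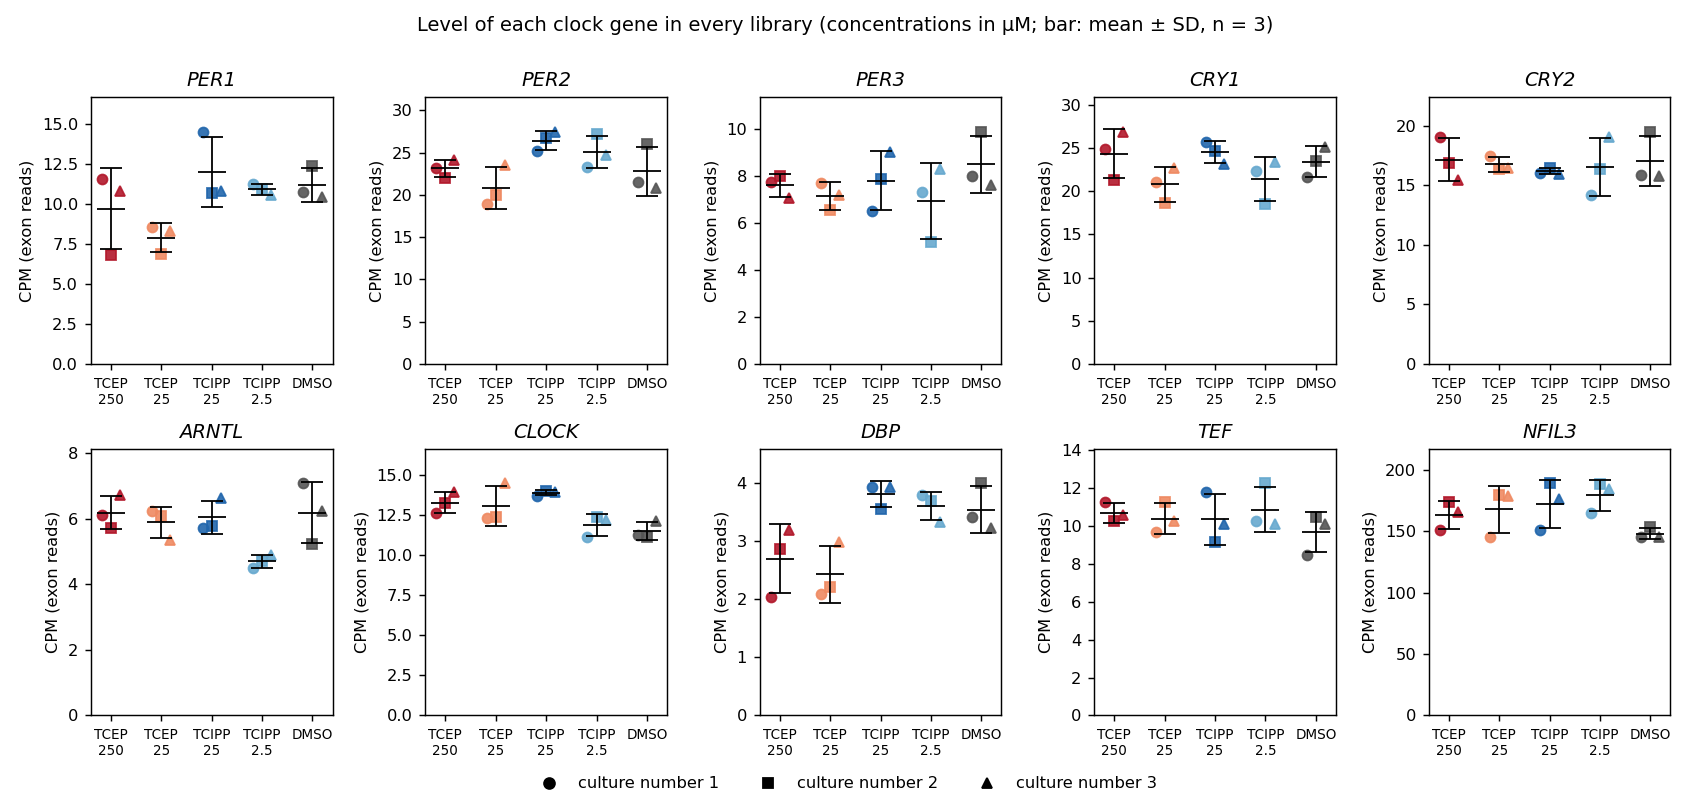
Level of each clock gene in CPM of exon reads (y axes start at 0) in the 15 libraries, by group (x axis, concentrations in µM), with marker shape for the culture number and bars for mean ± SD (n = 3). DBP lies between 2.04 and 3.19 CPM in the 6 TCEP cultures and between 3.22 and 3.99 CPM in the other 9, and ARNTL is lowest in the 3 TCIPP 2.5 µM cultures.

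The 2 compounds shared 1 concentration, 25 µM, and 1 exposure time. That concentration was the lower level of TCEP and the higher of TCIPP, so compound and level cannot be told apart in this comparison. PER1 averaged 11.97 ± 2.17 CPM at TCIPP 25 µM and 7.89 ± 0.908 CPM at TCEP 25 µM (SD, n = 3 each), a log2 fold change of 0.60 with a 95% confidence interval of 0.24 to 0.96. DBP averaged 3.80 ± 0.222 CPM at TCIPP 25 µM and 2.43 ± 0.489 CPM at TCEP 25 µM, a log2 fold change of 0.62 with an interval of 0.16 to 1.08. PER2 averaged 26.4 ± 1.18 CPM at TCIPP 25 µM and 20.8 ± 2.45 CPM at TCEP 25 µM, a log2 fold change of 0.33 with an interval of 0.10 to 0.55. For these 3 genes the groups did not overlap, which by itself makes TCIPP the higher in every pair of cultures with the same number.

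With edgeR's quasi-likelihood test and Benjamini-Hochberg adjustment over all genes, PER1 reached an adjusted p of 0.107, PER2 of 0.136 and DBP of 0.157, so that 0 of 10 clock genes were called, beside 0.0796% of all genes tested (10 of 12567; 0.0318% higher and 0.0477% lower at TCIPP 25 µM). At an unadjusted p under 0.05 there were 3 of 10 clock genes and 17.8% of all genes, and 0 were called by DESeq2 or limma-voom. DESeq2 gave DBP no adjusted p (its unadjusted DESeq2 p was 0.0369), so it could not call that gene. CRY1 was the fourth gene whose groups did not overlap, at 24.5 ± 1.27 CPM at TCIPP 25 µM and 20.8 ± 2.07 CPM at TCEP 25 µM (log2 fold change 0.22, edgeR adjusted p 0.308). Non-overlap was found for 20.1% of all genes, so 4 of 10 has to be read against that share.

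Libraries of treated groups with the same number deviated together over all genes, so the numbers were taken to pair them. The labels do not state such a pairing, which was inferred from these same data. With the culture number as a block in the edgeR fit, PER1 (log2 fold change 0.59, adjusted p 0.0248) and PER2 (0.33, adjusted p 0.0445) were called higher at TCIPP 25 µM than at TCEP 25 µM, and DBP (0.63, adjusted p 0.0896) was not. This made 2 of 10 clock genes, beside 9.23% of all genes (1160 of 12567) called in the same fit. That fit held all 15 libraries, DMSO included, although the numbers are not taken to pair groups with DMSO. A blocked edgeR fit of the treated libraries alone, added after the data were seen, also called PER1 (adjusted p 0.00667) and PER2 (0.0136). There 17.4% of all genes were called. PER2 depended on the reads counted: with unique exon reads alone and no block its log2 fold change was 0.24 (edgeR adjusted p 0.324). The remaining 6 genes, PER3, CRY2, ARNTL, CLOCK, TEF and NFIL3, had log2 fold changes of -0.06 to 0.11, with intervals that reached up to 0.47 (PER3) and down to -0.32 (CRY2).

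Early response genes and hypoxia response genes are given beside these values. Of 16 immediate early genes tested, 13 had a positive log2 fold change at TCIPP 25 µM against TCEP 25 µM, with a median of 0.22 against a median of -0.0022 over all genes, and 0 were called without the block. With the block 5 were called by edgeR, 4 of them higher, beside 9.23% of all genes. Among the 4 were FOS (log2 fold change 0.80, adjusted p 0.00651) and EGR1 (0.64, adjusted p 0.0133), both transcription factors induced within minutes by growth signals. Of 20 hypoxia response genes 18 had a negative log2 fold change, with a median of -0.22. Without the block 0 were called, and with it 7, all 7 lower, beside the same 9.23% of all genes. The part of either in the clock gene values was not tested.

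**Figure D3:**
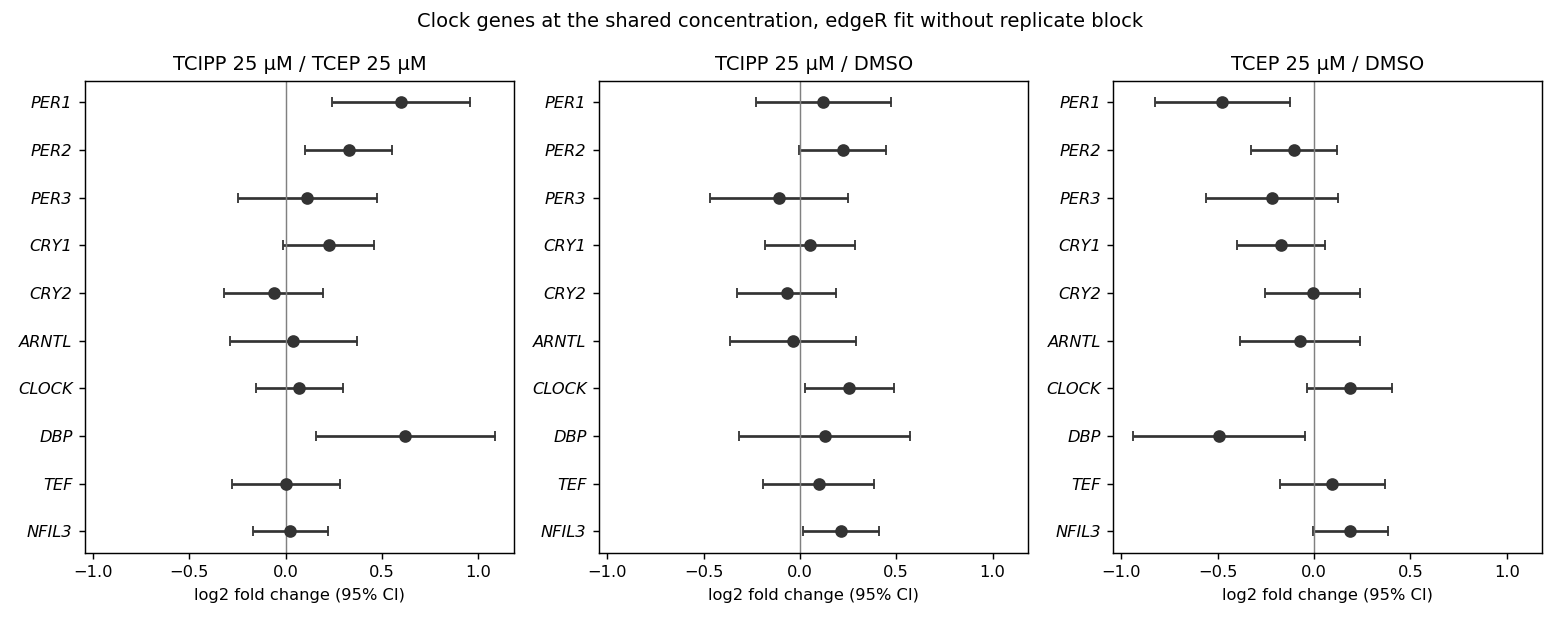
Log2 fold change with 95% confidence interval (x axis) of the 10 clock genes for TCIPP 25 µM over TCEP 25 µM, and for TCIPP 25 µM and TCEP 25 µM each over DMSO, from the edgeR fit without block. PER1 (0.60), DBP (0.62) and PER2 (0.33) have intervals above 0 in the left panel; the other panels share the DMSO libraries.

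PER1, PER2 and DBP are shown with the sequence just upstream of their start sites because they stood furthest apart between the compounds. The 300-base windows (250 bases before to 50 after each start; RefSeq, GRCh38.p14) were searched on both strands for 4 motifs: the E-box CACGTG, its variant CACGTT, the D-box TTANGTAA and the ROR element core TAGGTCA. Printed below are 260 bases of each, 5′ to 3′ on the gene's strand, ending 10 bases past the start, with motif matches in capitals: chr17:8152395-8152654 for PER1, chr2:238288601-238288860 for PER2 and chr19:48637370-48637629 for DBP, all on the minus strand.
PER1: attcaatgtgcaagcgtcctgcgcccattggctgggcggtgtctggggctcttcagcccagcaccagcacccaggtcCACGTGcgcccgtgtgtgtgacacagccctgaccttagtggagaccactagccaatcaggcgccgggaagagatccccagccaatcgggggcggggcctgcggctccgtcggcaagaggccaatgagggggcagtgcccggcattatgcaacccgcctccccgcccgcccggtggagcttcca
PER2: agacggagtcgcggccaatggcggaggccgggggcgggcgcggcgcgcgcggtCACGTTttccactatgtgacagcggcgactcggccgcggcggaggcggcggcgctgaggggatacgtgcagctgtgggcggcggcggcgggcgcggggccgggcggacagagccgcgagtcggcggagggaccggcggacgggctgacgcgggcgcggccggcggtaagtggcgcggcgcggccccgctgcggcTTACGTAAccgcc
DBP: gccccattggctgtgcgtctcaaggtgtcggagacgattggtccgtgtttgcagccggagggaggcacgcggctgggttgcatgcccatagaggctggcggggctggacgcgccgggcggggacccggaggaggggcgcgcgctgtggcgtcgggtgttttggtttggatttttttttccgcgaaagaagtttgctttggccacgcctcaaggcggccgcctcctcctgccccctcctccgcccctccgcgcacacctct
Counted from the start site, the PER1 window held 1 E-box whose first base was at -173, and the PER2 window a CACGTT at -197 and a D-box at -3, which runs across the start itself. In DBP none of the 4 motifs was found in this window, which says nothing of sites elsewhere in the gene. Over the 16 windows of the 10 genes, CACGTG was found for PER1 and TEF, CACGTT for PER2, CRY1, CRY2 and CLOCK, TTANGTAA for PER2 and PER3, and TAGGTCA for CRY2, ARNTL and NFIL3. Of all 35116 windows of the same length, 7.26% held CACGTG, 5.34% CACGTT, 2.18% TTANGTAA and 1.85% TAGGTCA.

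Against DMSO, 0 of 10 clock genes were called by edgeR in each of the 4 treated groups, and 0 by DESeq2 or limma-voom. The background of called genes was as low, at 0.00796% for TCEP 250 µM, 0.0239% for TCEP 25 µM (0.0159% higher and 0.00796% lower), 0.00796% for TCIPP 25 µM and 0.111% for TCIPP 2.5 µM (0.0955% higher and 0.0159% lower). At an unadjusted p under 0.05 the clock genes numbered 0, 2, 2 and 2 in that order, beside 5.07%, 15.1%, 6.25% and 13.6% of all genes. DESeq2 gave no adjusted p for PER1 and DBP at TCEP 25 µM (unadjusted DESeq2 p 0.0129 and 0.0864), so it could not call them. These 4 comparisons share the 3 DMSO libraries. The culture numbers were taken to pair the treated groups alone, and a fit with the number as a block is given here for completeness. In it 0 of 10 were called for TCEP 25 µM, beside 8.59% of all genes, and 1, NFIL3, for TCIPP 2.5 µM, beside 7.64%.

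At TCEP 25 µM, PER1 averaged 7.89 ± 0.908 CPM, against 11.2 ± 1.04 CPM in DMSO cultures (log2 fold change -0.48, interval -0.83 to -0.13, edgeR adjusted p 0.200). DBP averaged 2.43 ± 0.489 CPM at TCEP 25 µM and 3.54 ± 0.402 CPM in DMSO cultures (log2 fold change -0.49, interval -0.94 to -0.05, edgeR adjusted p 0.281). At the 10 times higher concentration of 250 µM the same 2 genes had log2 fold changes of -0.18 and -0.34, each with an edgeR adjusted p of 0.996 over all genes. EGR1 was the 1 immediate early gene of 16 called at TCEP 25 µM, beside 0.0239% of all genes. It averaged 12.7 ± 1.59 CPM against 24.7 ± 5.06 CPM in DMSO cultures (log2 fold change -0.92, edgeR adjusted p 0.0391). Of the 20 hypoxia response genes 18 were positive in this comparison, with a median log2 fold change of 0.31, and 0 were called without the block. With the block 12 were called, all 12 higher, beside 8.59% of all genes, although the numbers are not taken to pair groups with DMSO. The part of either list in the PER1 and DBP values was not tested.

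At TCIPP 2.5 µM, ARNTL averaged 4.70 ± 0.198 CPM, against 6.19 ± 0.923 CPM in DMSO cultures (log2 fold change -0.38, interval -0.71 to -0.06, edgeR adjusted p 0.274). NFIL3 averaged 179 ± 12.8 CPM at TCIPP 2.5 µM and 148 ± 4.59 CPM in DMSO cultures (log2 fold change 0.28, interval 0.09 to 0.48, edgeR adjusted p 0.170). Hypoxia response genes were positive in 20 of 20 at this concentration, with a median log2 fold change of 0.35. Without the block 0 of them were called, and with it 13, all higher, beside 7.64% of all genes. The numbers are not taken to pair groups with DMSO, and the part of the hypoxia response genes in the NFIL3 value was not tested. At TCIPP 25 µM, CLOCK averaged 13.9 ± 0.167 CPM, against 11.5 ± 0.554 CPM in DMSO cultures (log2 fold change 0.26, edgeR adjusted p 0.736), and NFIL3 averaged 172 ± 19.2 CPM, against 148 ± 4.59 CPM (0.21, adjusted p 0.761).

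The spread between libraries, which includes counting error, limited what could be seen. The 95% confidence interval of a clock gene's log2 fold change between a treated group and DMSO had a median half-width of 0.26 to 0.27, rising to 0.45 for the least abundant gene, DBP. Clock genes whose groups did not overlap numbered 2 at TCEP 250 µM (CLOCK and DBP), 3 at TCEP 25 µM (PER1, CLOCK and DBP), 1 at TCIPP 25 µM (CLOCK) and 2 at TCIPP 2.5 µM (ARNTL and NFIL3). Over all genes tested the shares were 11.2%, 22.6%, 9.2% and 16.8% in the same order.

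Between concentrations of 1 compound, 0 of 10 clock genes were called by edgeR for TCEP 250 µM against 25 µM, where 0% of all genes were, and 0 for TCIPP 25 µM against 2.5 µM, where 0.00796% were. With the culture number as a block both counts stayed at 0. Unadjusted p under 0.05 was reached by 0 and 1 clock genes, beside 6.91% and 10.5% of all genes. ARNTL was that gene, at 6.05 ± 0.509 CPM at TCIPP 25 µM and 4.70 ± 0.198 CPM at TCIPP 2.5 µM (log2 fold change 0.35, interval 0.01 to 0.69, edgeR adjusted p 0.459). The groups did not overlap, which by itself makes ARNTL the higher at 25 µM in every pair of cultures. For TCEP the matching ARNTL value was 0.08, at 6.19 ± 0.498 CPM at 250 µM and 5.90 ± 0.472 CPM at 25 µM, and the difference between the 2 steps was -0.27 (interval -0.74 to 0.19, edgeR adjusted p 1.00).

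Pooling the compounds, the 6 cultures at the higher concentrations were compared with the 6 at the lower. CRY1 averaged 24.3 ± 2.82 CPM at TCEP 250 µM and 24.5 ± 1.27 CPM at TCIPP 25 µM, against 20.8 ± 2.07 CPM at TCEP 25 µM and 21.4 ± 2.58 CPM at TCIPP 2.5 µM. Its log2 fold change was 0.20 (interval 0.03 to 0.36, edgeR adjusted p 0.225), and 0 of 10 clock genes were called, beside 1.22% of all genes (0.43% higher and 0.788% lower). At an unadjusted p under 0.05 CRY1 stood alone among the 10, beside 16.1% of all genes. With the block in the fit of all 15 libraries its adjusted p was 0.0764, and in a fit of the 12 treated libraries alone, added after the data were seen, it was 0.0392, where 15.1% of all genes were called. Clock genes with no overlap between the 6 and 6 cultures numbered 0, beside 1.56% of all genes. Higher and lower here are ranks within a compound, since 25 µM is the lower concentration of TCEP and the higher of TCIPP.

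The clock genes were also compared between culture numbers. Rhythms of single cells drift out of phase where no step synchronises them, and the sources state no such step or harvest hour. The comparison therefore cannot tell whether cultures of 1 number were harvested at a like time across groups. NFIL3 was the 1 of 10 clock genes that differed between numbers, with 14.5% of all genes tested (1821 of 12567) doing so in the same edgeR fit, and 1 of 10 beside 30.6% at an unadjusted p under 0.05. It averaged 177 ± 14.7 CPM in number 2 and 170 ± 15.5 CPM in number 3 cultures, against 152 ± 7.88 CPM in number 1 cultures (SD, n = 5 groups each). Number 2 exceeded number 1 in 5 of 5 groups by a fitted 0.22 on the log2 scale (edgeR F-test over the 3 numbers, adjusted p 0.00780), and number 3 exceeded number 1 in 4 of 5. The smallest difference between numbers 2 and 1 was in DMSO cultures, at 153 CPM for number 2 and 146 CPM for number 1.

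The other 9 clock genes had adjusted p values of 0.185 (CRY1) to 0.939 (PER3) in that test. PER1 averaged 10.2 ± 1.06 CPM in number 3 and 11.3 ± 2.13 CPM in number 1 cultures, with number 3 above number 1 in 0 of 5 groups. CLOCK averaged 13.3 ± 1.09 CPM in number 3 and 12.2 ± 1.06 CPM in number 1 cultures, with number 3 above number 1 in 5 of 5, and neither gene passed (edgeR adjusted p 0.340 and 0.514). Over the 10 clock genes together, the deviations from the group means of same-numbered treated libraries were positively correlated in 11 of 18 pairs, with a median r of 0.14 and a range of -0.65 to 0.71, as a description over 10 genes of shared libraries. Hypoxia response genes also differed between the numbers, with 12 of 20 called, beside 14.5% of all genes, and 18 of 20 higher in number 2 than in number 1 cultures. Number 3 libraries were the deepest in most groups, and the part of depth or of hypoxia response genes in the NFIL3 difference was not tested.

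**Figure D4:**
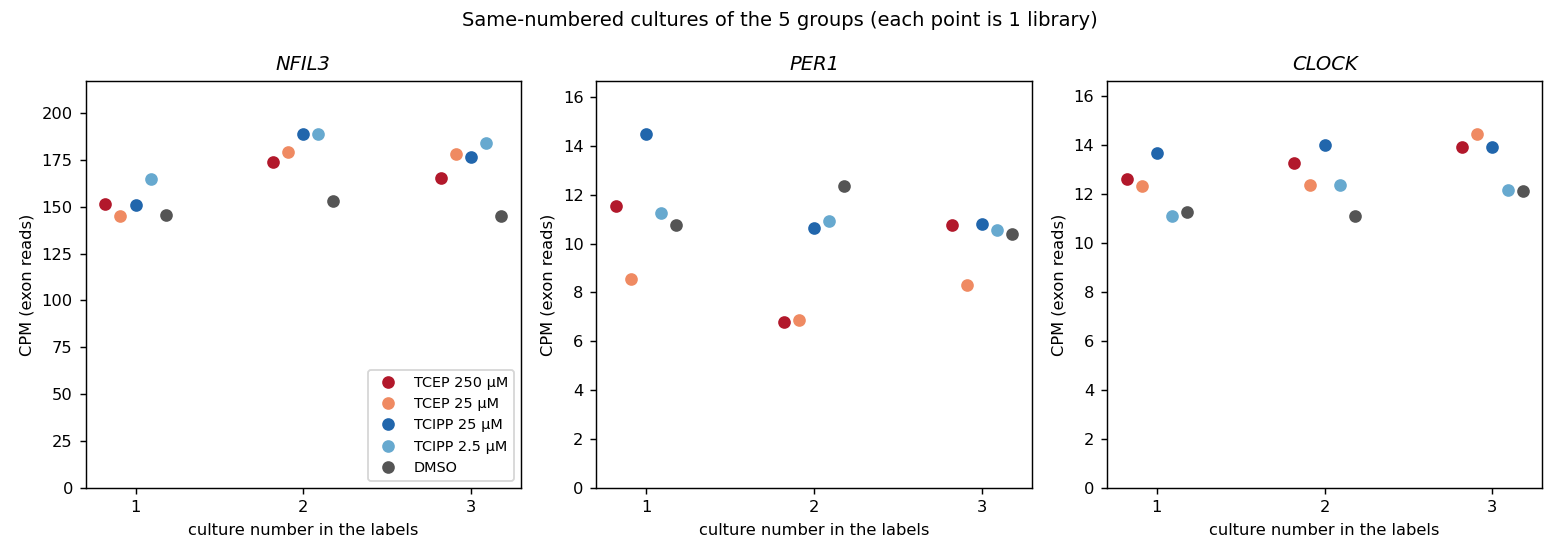
NFIL3, PER1 and CLOCK in CPM of exon reads (y axes start at 0) by culture number (x axis), 1 point per library, coloured by group. NFIL3 is higher in number 2 than in number 1 cultures in 5 of 5 groups, by the least in DMSO.

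ARNTL and many of its targets peak at opposite times of day in liver, and partners of the loop were therefore set against each other. Deviations from the group means over the 15 libraries were correlated for 8 pairs, by exact two-sided permutation within groups (7776 arrangements). Neither the deviations nor the shuffling take the culture number into account, so these p values ignore what same-numbered libraries share. Adjusted over the 8 pairs, 0 passed, with exact permutation p values of 0.731 to 0.988 for Pearson's r and 0.869 to 0.914 for Spearman's rho. ARNTL with DBP gave r = -0.32 and Spearman's rho = -0.42 (exact p 0.322 and 0.217), and r = -0.24 without the 2 libraries farthest from the median of ARNTL. CRY1 with NFIL3 gave r = -0.39 and rho = -0.44 (exact p 0.219 and 0.166), and r = -0.22 without the 2 farthest.

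ARNTL with PER2 gave r = -0.42 and rho = -0.18 (exact p 0.304 and 0.619), and r = -0.12 without the 2 farthest libraries, both of them DMSO cultures, so that this value rested on those libraries. PER1 with PER2 gave r = 0.20 and rho = 0.19 (exact p 0.366 and 0.502; r = 0.24 without the 2 farthest). ARNTL with PER3 gave r = -0.21 and rho = -0.14 (exact p 0.496 and 0.672), and r = 0.04 without the 2 farthest. ARNTL with CLOCK gave r = 0.0044 and rho = -0.04 (exact p 0.988 and 0.914), and r = -0.16 without them. DBP with TEF gave r = 0.07 and rho = 0.19 (exact p 0.773 and 0.498; r = 0.27 without the 2 farthest), and DBP with PER3 r = -0.09 and rho = -0.09 (exact p 0.682 and 0.765; r = -0.11 without them).

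Genes whose deviations were most like those of 3 clock genes were picked by r over the same 15 libraries, among 10103 genes (10104 for DBP) with a mean of at least 5 CPM. For ARNTL they were ARHGEF12 (r = 0.88), BPNT1 (0.86) and TNKS (0.86), and among the most opposite were SH3GLB2 (-0.93) and ASL (-0.88). For PER2 they were SF3A2 (0.90), RAPH1 (0.90) and GDF15 (0.88), and for DBP ZNF236 (0.88), NIPA1 (0.83) and KIAA0355 (0.81). None of these is a clock gene on the lists used here. Each is the extreme of many genes over few libraries, given as a description with no p.

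Of 23 further clock genes, 20 were tested and 0 were called by edgeR in any of the 9 comparisons, beside 0% to 1.22% of all genes. Between 0 and 5 reached an unadjusted p under 0.05 in each, beside 1.6% to 17.8% of all genes. The 5 arose at TCEP 25 µM against DMSO, where the share was 15.1%. RORB was listed at 0, and BHLHE41 and CIART averaged 0.133 and 0.156 CPM and were not tested. HLF, the third D-box activator of the DBP family, measured 534 ± 16.2 CPM at TCEP 250 µM, 510 ± 20.2 CPM at TCEP 25 µM, 532 ± 46.8 CPM at TCIPP 25 µM and 513 ± 28.4 CPM at TCIPP 2.5 µM, against 504 ± 6.21 CPM in DMSO cultures. NPAS2, a paralog of CLOCK that can take its place, averaged 74.6 ± 5.20 CPM at TCIPP 25 µM and 58.2 ± 4.89 CPM at TCEP 25 µM. Its log2 fold change was 0.35 with an edgeR adjusted p of 0.0750, and of 0.00811 with the culture number as a block. In that fit it was the 1 of the 20 called, beside 9.23% of all genes.

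BHLHE40, which encodes a repressor at E-boxes, averaged 260 ± 23.7 CPM at TCIPP 2.5 µM, against 195 ± 23.6 CPM in DMSO cultures (log2 fold change 0.43, edgeR adjusted p 0.124). With the block it was called (adjusted p 0.00187), beside 7.64% of all genes, although the numbers are not taken to pair groups with DMSO. Between culture numbers 4 of the 20 tested genes of this list were called, beside 14.5% of all genes, and these included RORA, BHLHE40 and SIRT1. BHLHE40 was, like NFIL3, higher in number 2 than in number 1 cultures, by 0.24 on the log2 scale (edgeR adjusted p 0.0186), while RORA was higher in number 3 than in number 1, by 0.30 (adjusted p 0.000151), with 25.6% of its exon reads unique.

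Of 19 clock output genes of liver, 13 were tested. NR1H4, which encodes the bile acid receptor FXR, was higher at the higher than at the lower concentrations over both compounds, with DMSO cultures in between. It averaged 51.9 ± 8.52 CPM at TCEP 250 µM and 54.7 ± 8.26 CPM at TCIPP 25 µM, against 33.9 ± 5.67 CPM at TCEP 25 µM and 32.2 ± 7.07 CPM at TCIPP 2.5 µM, with 46.4 ± 7.97 CPM in DMSO cultures. Its log2 fold change of higher against lower was 0.67 ± 0.123 (SE, edgeR adjusted p 0.0226), and it was the 1 of 13 called, beside 1.22% of all genes. Against DMSO it was not called without the block. With it, NR1H4 was called lower at TCEP 25 µM (log2 fold change -0.46, adjusted p 0.000931) and TCIPP 2.5 µM (-0.55, adjusted p 0.000151), and was not called at TCEP 250 µM or TCIPP 25 µM. These calls carry a limit, as the numbers are not taken to pair groups with DMSO. With the block 4 of 13 were called for higher against lower concentrations, NR1H4 and KLF15 higher and TFRC and KLF10 lower, beside 8.78% of all genes. For TCIPP 25 µM against TCEP 25 µM the blocked fit called 4 of 13, namely NR1H4, KLF15 and LPIN1 higher and TFRC lower, beside 9.23% of all genes, and the fit without it 0.

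For single steps the blocked fit called NR1H4 and TFRC between the TCEP concentrations, beside 1.62% of all genes, and NR1H4 between the TCIPP concentrations, beside 3.87%. NR1H4 also differed between culture numbers, at -0.43 on the log2 scale for number 2 against number 1 (edgeR adjusted p 0.000305), as did WEE1, NAMPT and POR. That made 4 of 13 clock output genes called, beside 14.5% of all genes. Serum and glucocorticoids reset the clock of cultured cells, and 13 of 15 glucocorticoid response genes were tested. Without the block DUSP1 was the 1 of 13 called between groups, higher at TCIPP 2.5 µM than in DMSO cultures, beside 0.111% of all genes (0.0955% higher). It averaged 117 ± 4.39 CPM against 71.0 ± 9.33 CPM (log2 fold change 0.73, edgeR adjusted p 0.0240), with 21.4% of its exon reads unique to 1 place. SGK1, a kinase induced by glucocorticoids, averaged 64.9 ± 3.33 CPM at TCEP 250 µM, 61.2 ± 2.29 CPM at TCEP 25 µM, 64.7 ± 9.34 CPM at TCIPP 25 µM and 65.4 ± 5.66 CPM at TCIPP 2.5 µM, against 92.1 ± 13.5 CPM in DMSO cultures. Its edgeR adjusted p was 0.0567 to 0.196 without the block, so it was called in none of the 4 groups, which share the DMSO libraries. The blocked fit called it lower in all 4 (edgeR adjusted p 9.04e-05 to 0.00599), although the numbers are not taken to pair groups with DMSO. That fit called 43 genes of 12567 at TCEP 250 µM and 57 at TCIPP 25 µM. It called 5 of the 13 glucocorticoid response genes at TCIPP 2.5 µM against DMSO, beside 7.64% of all genes, and 4 for higher against lower concentrations, beside 8.78%. At TCIPP 25 µM against TCEP 25 µM 6 of the 13 were positive and 0 were called without the block, beside 0.0796% of all genes. With the block 1 was called (GADD45B, lower), beside 9.23% of all genes. A total of 5 glucocorticoid response genes (MT2A, GADD45B, ANGPTL4, ERRFI1 and SGK1) and 4 immediate early genes (NR4A1, CYR61, KLF6 and CTGF) differed between culture numbers, beside 14.5% of all genes.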

How the data were processed

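Total exon reads of 15 HepG2 libraries in 5 groups of 3 were analysed. The series' design text says that the authors mapped stranded poly-A reads with CLC Genomics Workbench; its version and counting settings are not stated. The submitters' processing notes name hg19 (GRCh37). The authors' deposited counts are whole reads per gene, split into gene, exon and intron reads and their unique shares, per the file headers. RPKM was likewise deposited, and exon reads and exon length gave back 100% of these values (relative tolerance 0.0001). A deposited quantile-normalized signal, made by the authors in separate sets, was not used here. Of 57773 genes, 20986 had no exon length. Starts were moved by 1 base to a 1-based scale, since 86.4% lay 1 below the annotation. CPM was computed from exon reads and the library's own total. No 2 libraries of the same group agreed within sampling noise, and pairs across groups were not checked. Floors cover counting error only. The main fit's edgeR p-values and intervals rest on a spread between libraries, counting error included, estimated over all 15, with 3 per group.

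Counts were tested with edgeR 4.0.16 (R 4.3.3): filterByExpr, TMM scaling, glmQLFit with robust shrinkage, 1 mean per group over all 15 libraries, quasi-likelihood tests, Benjamini-Hochberg over 12567 genes, called at an adjusted p under 0.05. The step was tested on simulated data. The culture number test was an F-test of number beside group. Deviations are log2 CPM with a prior count of 2, centred on group means. Alternatives were DESeq2 1.42.0, limma-voom 3.58.1, library totals, no filter, total gene or unique exon reads, only the groups compared, a replicate block, and each library left out. Same-numbered treated libraries deviated together over all genes tested in 18 of 18 pairs (r over 0.1; 0.13 to 0.34), so the labels' numbers were taken to pair treated groups. With DMSO 3 of 12 pairs passed (0.02 to 0.16), and there they were not. The clock genes and gene lists were chosen with earlier results of these data known. All 10 clock genes are named; of the lists of other clock, clock output, glucocorticoid and immediate early genes, every gene called without the block and up to 3 with the smallest p per comparison; for ARNTL, PER2 and DBP, the 3 genes most alike. A few genes that this rule would name are not reported here. Sequences are from RefSeq (GRCh38.p14), and all 10 genes matched.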

Additional observations from a re-analysis of the deposited data

How the results depend on the processing

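The count of clock genes called stayed at 0 in each of the 9 comparisons, with these exceptions. With the replicate block NFIL3 made 1 for TCIPP 2.5 µM against DMSO (edgeR adjusted p 0.00360, beside 7.64% of all genes), where the culture numbers are not taken to pair the groups. For TCIPP 25 µM against TCEP 25 µM there was 1 without a filter on low counts (PER1, adjusted p 0.0361), 2 with the replicate block and 2 with the block over treated libraries only, added after the data were seen (PER1, adjusted p 0.00667, and PER2, 0.0136, beside 17.4% of all genes). For higher against lower concentrations there was 1 with the block over treated libraries only (CRY1, 0.0392). Leaving out each library gave 0 to 0 in the 9 comparisons and 1 to 1 for the culture number, where NFIL3 kept an adjusted p of 5.92e-05 to 0.0380 over all alternatives. The correlations gave 0 calls throughout. DESeq2 gave some clock genes no adjusted p, among them PER1 and DBP at TCEP 25 µM against DMSO, so its 0 does not cover them. The block changed no other call of a clock gene. Without replicate 1 of TCIPP 25 µM the PER1 log2 fold change against TCEP 25 µM was 0.42, the lowest of its alternatives (adjusted p 0.00667 to 0.472 over them). No call reversed, and the sign of a clock gene's log2 fold change, all of them uncalled, changed in 89 of 1520 alternative values. Counts over all genes were far less stable: 10 for TCIPP 25 µM against TCEP 25 µM ran from 0 to 188 with a library left out and from 0 to 2176 otherwise; 153 for higher against lower from 11 to 322 and from 96 to 1887; 14 for TCIPP 2.5 µM against DMSO from 0 to 311 and from 7 to 960; 3 for TCEP 25 µM against DMSO from 0 to 33 and from 0 to 1079; 1821 for the culture number from 1086 to 3390 and from 1477 to 3690. For TCEP 250 µM and TCIPP 25 µM against DMSO 1 gene each ran from 0 to 43 and from 0 to 57, for the TCEP and TCIPP steps 0 and 1 reached 627 and 1042. Single libraries moved these counts: 188 and 322 arose without TCIPP 25 µM replicate 2, 311, 33 and 3390 without DMSO replicate 2, 11 without TCEP 25 µM replicate 2 and 1086 without TCIPP 2.5 µM replicate 3. The cause was not tested. Depth limited DBP most, at 15 to 89 reads per library.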

Other observations

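Genes of the hypoxia response, which the factor HIF1 induces when oxygen is low, were in part lower at the higher than at the lower concentrations over both compounds. Of 20 tested, 19 had a negative log2 fold change for higher against lower concentrations, with a median of -0.24, and 5 were called by edgeR, all lower, beside 0.788% of all genes. With the culture number as a block 12 of 20 were called lower, beside 8.78% of all genes. In each single step 10 of 20 were called lower, beside 1.62% of all genes for TCEP and 3.87% for TCIPP. Against DMSO the median log2 fold change was 0.03 at TCEP 250 µM, 0.31 at TCEP 25 µM, 0.06 at TCIPP 25 µM and 0.35 at TCIPP 2.5 µM, so the larger differences from DMSO were at the lower concentrations, in comparisons that share the DMSO libraries. These 5 are named here after their values were seen. CA9, a carbonic anhydrase that marks hypoxic cells, averaged 52.6 ± 8.01 CPM at TCEP 250 µM and 58.8 ± 5.17 CPM at TCIPP 25 µM, against 74.5 ± 8.53 CPM at TCEP 25 µM and 86.4 ± 8.52 CPM at TCIPP 2.5 µM, with 56.9 ± 10.2 CPM in DMSO cultures (SD, n = 3 each; log2 fold change -0.54, edgeR adjusted p 0.0155). EGLN3, an oxygen sensor of the same pathway, averaged 46.4 ± 7.22 CPM at TCEP 250 µM and 46.01 ± 7.76 CPM at TCIPP 25 µM, against 67.03 ± 9.28 CPM at TCEP 25 µM and 74.5 ± 13.4 CPM at TCIPP 2.5 µM, with 49.03 ± 5.19 CPM in DMSO cultures (log2 fold change -0.63, edgeR adjusted p 0.0177). PFKFB4, NDRG1 and BNIP3 were the other called genes, with log2 fold changes of -0.27, -0.42 and -0.28. The same list was higher in number 2 than in number 1 cultures, with 12 of 20 called, beside 14.5% of all genes.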
